A study of Mus musculus with 3 samples.

Results

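The folliculin and Rag GTPase branch of lysosomal nutrient sensing was followed in J774A.1 macrophages through 10 genes: the folliculin complex (Flcn, Fnip1, Fnip2), the 4 Rag GTPases (Rraga, Rragb, Rragc, Rragd) and the MiT/TFE transcription factors (Tfeb, Tfe3, Mitf). They were found among 27597 genes on the array by gene name or RefSeq accession. This gave 15 probes of 9 genes, and 3 further probes carried an older RefSeq synonym: the single Fnip2 probe, listed under the name D630023B12Rik, and 2 of the 3 Tfe3 probes. The genes had been chosen with log2 ratios of these same arrays in view, so those ratios are given as a description and no test is attached to them.

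J774A.1 is an established mouse macrophage-like line. The cells were kept for 6 h in EBSS to which SB202190, a p38 MAP kinase inhibitor, was added at 10 µM, in EBSS alone, a salt solution with glucose and no amino acids, or in RPMI medium with 10% fetal bovine serum. The labels name no serum for the EBSS media and do not say whether cells in EBSS alone received the solvent of the inhibitor, so effects of amino acids, serum and further components of RPMI cannot be told apart. The 3 conditions were paired on 3 two-colour Agilent arrays of 1 slide in a closed loop, so that each condition was read once in Cy5 and once in Cy3.

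Each condition was 1 sample read in both dyes, and no p-value was computed. All errors are technical standard errors from the loop of arrays and leave out the spread between cultures. Over the array, 40.1% to 49.9% of spots were well above background per channel, and the technical standard error was 0.11 at the median (log2 ratio). As RNA of a whole culture was labelled, fewer cells with a transcript and less of it per cell cannot be told apart. The labelled cell type was checked on marker genes. All 10 macrophage markers examined were well above background in all 6 channels, against 1 of 10 markers of other cell types, the haemoglobin gene Hba-a1, with a log2 ratio of 0.03 for EBSS over RPMI and -0.05 for EBSS with SB202190 over EBSS. Of the other-type markers, 5 were well above background in no channel. The macrophage markers Cd14 and Fcgr1 read -1.56 and -1.31 for EBSS with SB202190 over EBSS, and their part in the results below was not tested.

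Rag GTPases work as heterodimers of RagA or RagB with RagC or RagD. When amino acids are plentiful they bring the kinase complex mTORC1 to the lysosome. Folliculin, with its partners FNIP1 or FNIP2, activates the GTPase of RagC and RagD, which lets the Rag dimer present TFEB and TFE3 to mTORC1 for phosphorylation and so holds these factors in the cytoplasm. In starved cells the factors move to the nucleus and switch on genes for lysosomes and autophagy, and the folliculin gene is itself a known target of theirs.

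The sequences just upstream of 5 of the genes are shown. Of these, 4 (Flcn, Fnip1, Fnip2 and Rragc) were the members that moved most between the media. Rragb varied least across the channels and carries the most copies of the E-box, the core of the sites that MiT/TFE factors bind. The single Rragb probe is dim, with a log2 intensity of 8.87 in RPMI, against 8.62 for the brighter Rragd probe, which was not above background. Its small variation therefore cannot show whether the gene responded. Each line gives the 250 bases before the annotated start, 5′ to 3′ on the gene's strand, from RefSeq on build GRCm38.p6. Capitals mark the E-box, CACGTG, which reads the same on both strands.
Flcn, minus strand, chr11:59810040-59810289: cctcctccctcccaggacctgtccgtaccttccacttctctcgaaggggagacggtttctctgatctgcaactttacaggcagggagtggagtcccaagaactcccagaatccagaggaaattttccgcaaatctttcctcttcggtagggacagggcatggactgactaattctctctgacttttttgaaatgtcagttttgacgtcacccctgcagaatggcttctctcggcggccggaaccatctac
Fnip1, plus strand, chr11:54437929-54438178: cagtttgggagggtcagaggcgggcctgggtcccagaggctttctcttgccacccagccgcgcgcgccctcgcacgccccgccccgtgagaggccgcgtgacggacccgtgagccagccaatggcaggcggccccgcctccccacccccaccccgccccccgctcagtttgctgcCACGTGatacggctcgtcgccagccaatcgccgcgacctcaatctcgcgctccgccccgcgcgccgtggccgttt
Fnip2, minus strand, chr3:79567680-79567929: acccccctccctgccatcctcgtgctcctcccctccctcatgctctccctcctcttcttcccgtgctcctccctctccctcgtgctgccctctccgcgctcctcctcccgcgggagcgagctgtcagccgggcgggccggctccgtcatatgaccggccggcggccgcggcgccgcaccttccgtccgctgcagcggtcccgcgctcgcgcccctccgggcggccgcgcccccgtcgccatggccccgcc
Rragc, plus strand, chr4:123917183-123917432: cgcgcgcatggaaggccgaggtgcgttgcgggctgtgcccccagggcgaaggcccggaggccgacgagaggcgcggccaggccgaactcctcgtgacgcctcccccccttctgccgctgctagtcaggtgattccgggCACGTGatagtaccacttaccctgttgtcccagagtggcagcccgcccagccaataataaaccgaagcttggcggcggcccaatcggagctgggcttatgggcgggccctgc
Rragb, plus strand, chrX:153139708-153139957: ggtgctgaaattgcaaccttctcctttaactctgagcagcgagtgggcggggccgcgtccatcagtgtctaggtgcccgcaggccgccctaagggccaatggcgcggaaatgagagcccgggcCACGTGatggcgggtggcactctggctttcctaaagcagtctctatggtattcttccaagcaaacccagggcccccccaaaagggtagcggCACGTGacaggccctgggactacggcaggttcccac
In windows of 300 bases, which add 50 bases past the start, Fnip1 and Rragc had 1 E-box each, at offsets of -75 and -112 bases from the start. Rragb had 3, at offsets of -127, -36 and -3, the last of which runs past the end of the stretch shown. Flcn, Fnip2, Rraga, Rragd, Tfeb, Tfe3 and Mitf had none in their windows. An E-box was found in 3 of 10 members, against 8.09% of 27025 genes and 7.15% of 32851 windows of the same length. All 5 E-boxes of the members are followed by an A, and so hold TCACGTG on the other strand, a form that 3.77% of windows contained. Searched on both strands, the 10-base CLEAR palindrome, which contains the E-box, the M-box TCATGTG and the amino acid response motif TGATGNAA were found in no member window, against 0.326%, 3.77% and 3.97% of all windows. These matches are matches of letters only and say nothing on whether a factor bound there.

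**Figure D1:**
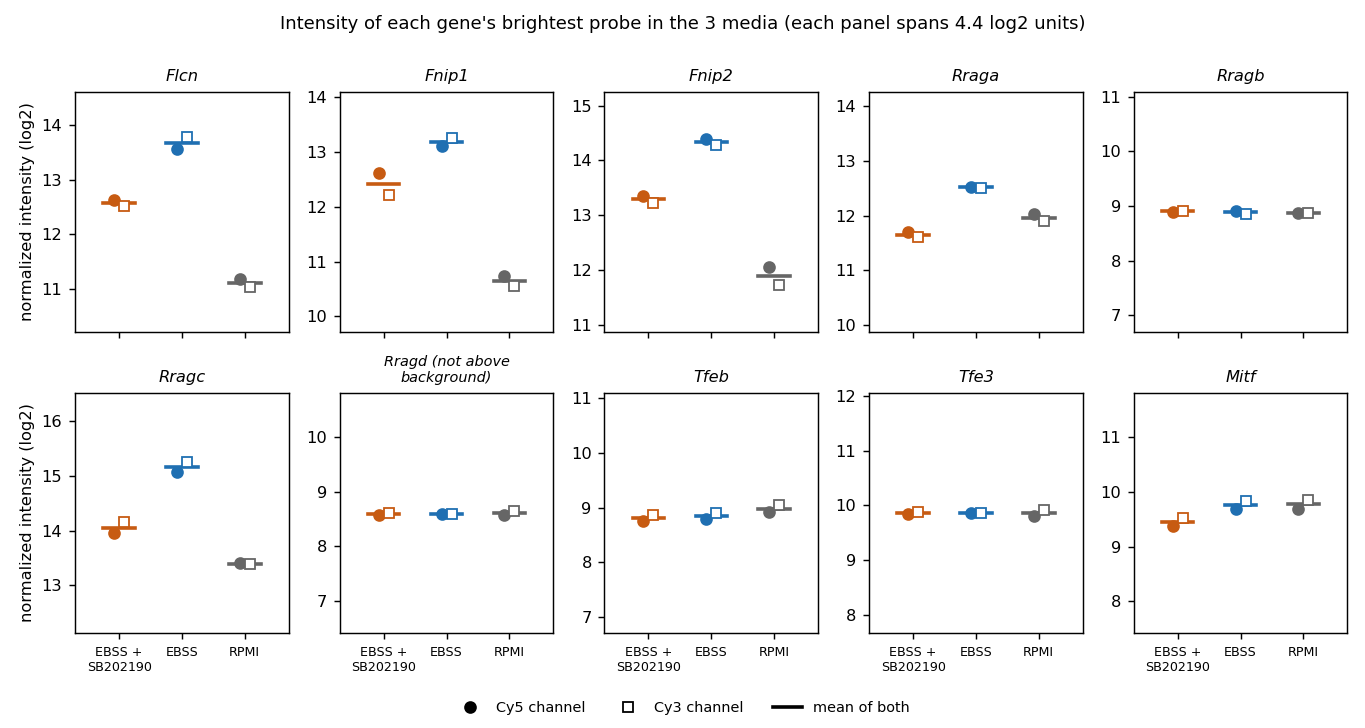
Normalized intensity (log2) of the brightest probe of each of the 10 genes, with cells in EBSS with SB202190 at the left, EBSS in the middle and RPMI at the right; filled circles are Cy5, open squares Cy3 and bars their mean, 1 sample per condition. Flcn, Fnip1, Fnip2 and Rragc stand highest in EBSS and lowest in RPMI, Rraga is highest in EBSS and lowest with SB202190, and Rragb, Tfeb and Tfe3 vary by less than 0.30 across all 6 channels.

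The whole folliculin complex rose in EBSS. Flcn rose 6.08-fold, Fnip1 6.36-fold and Fnip2 5.32-fold over RPMI, and the RagC gene Rragc rose 3.31-fold. With SB202190 in EBSS, Flcn and Rragc fell to about 0.49 of their EBSS level (0.493 and 0.488). Fnip2, Rraga and Fnip1 also read below their EBSS level, at 0.511, 0.558 and 0.589 of it, short of the size counted. All 3 folliculin complex genes were still 2.72-fold to 3.75-fold above RPMI with the inhibitor. Rraga, Rragb and the 3 MiT/TFE factor genes met the criteria in no comparison, and Rragd was not well above background.

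To be counted, a gene needed a log2 ratio of size 1 or more and 2 routes of equal sign: the direct route, on the array with both media, and the indirect one, over the other pair of arrays, had to give 0.5 or more each. The probe also had to be well above background in both channels of 1 or both media. By these criteria 4 of 9 measured members were higher and 0 lower in EBSS than in RPMI, where 4.48% of 11877 measured genes were higher and 2.82% lower. With SB202190 in EBSS, 0 of 9 were higher and 2 lower than in EBSS alone, where 0.889% of 11701 genes were higher and 2.92% lower. Between EBSS with SB202190 and RPMI, 3 were higher and 0 lower, where 1.47% of 11867 genes were higher and 2.43% lower. As the members were chosen on these ratios, nothing is read from the shares. The members' median log2 ratio was 0.56, -0.76 and 0.00 in these 3 comparisons, against 0.00, 0.00 and 0.01 for all measured genes. The 3 comparisons share their samples, so that any 2 of them fix the third.

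Flcn encodes folliculin, the catalytic subunit of the complex. Its probe lies at chr11:59608350-59608409, minus strand, on build mm8, as do all probe positions below, and their place in exons or introns was not analysed here. Its normalized log2 intensity in Cy5 and Cy3 was 12.63 and 12.52 in EBSS with SB202190, 13.55 and 13.78 in EBSS, and 11.19 and 11.03 in RPMI. The channels of the 3 media did not overlap, and the smallest gap between media, 0.92 between EBSS with SB202190 and EBSS, was larger than the largest gap between the dyes of 1 medium, 0.23. The log2 ratio was 2.60 ± 0.12 (technical SE) for EBSS over RPMI, with 2.59 from the array that held both and 2.63 through the other 2 arrays. With SB202190 it was -1.02 ± 0.12 against EBSS (-1.03 and -0.99 by the 2 routes) and 1.58 ± 0.12 against RPMI. Flcn was thus close to the limit of size 1 in the inhibitor comparison and far above it for EBSS over RPMI. For EBSS with SB202190 over RPMI it read 1.10 in its lowest setting.

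Fnip1 encodes a folliculin partner that was first described as binding AMPK as well. Its brightest probe, at chr11:54361565-54361624 on the plus strand, read 12.61 and 12.21 in EBSS with SB202190, 13.12 and 13.26 in EBSS, and 10.74 and 10.56 in RPMI (Cy5, Cy3, log2). No medium overlapped with another. The log2 ratio of EBSS over RPMI was 2.67 ± 0.12, and the 2 routes gave 2.52 and 2.97. With SB202190 the log2 ratio was -0.76 ± 0.12 against EBSS, below the size counted, and 1.91 ± 0.12 against RPMI.

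The other Fnip1 probes allow a check within the gene. The probe at chr11:54361033-54361092 gave log2 ratios of 2.56 for EBSS over RPMI, -0.70 for SB202190 in EBSS and 1.86 for EBSS with SB202190 over RPMI. The probe at chr11:54360059-54360118 gave 2.08, -0.67 and 1.41 in the same order. The 3 bright probes thus gave the same calls in all 3 comparisons. The dimmest, whose match spans chr11:54340073-54342855, was well above background in both channels in EBSS, in 1 of 2 channels in EBSS with SB202190 and in 0 of 2 in RPMI. From the mean intensities of this probe Fnip1 was 1.16-fold higher in EBSS than in RPMI. The probe's channels in these media were 0.12 apart, below its largest gap between the dyes of 1 medium, 0.14. With measured log2 intensities of 8.83 in EBSS and 8.61 in RPMI it lay near the range where the offset of the background correction compresses ratios.

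Fnip2 encodes the other folliculin partner. Its probe at chr3:79542206-79542265, minus strand, read 13.36 and 13.23 in EBSS with SB202190, 14.39 and 14.28 in EBSS, and 12.06 and 11.72 in RPMI. The media were again fully separate. The log2 ratio was 2.41 ± 0.13 for EBSS over RPMI, with 2.22 and 2.80 by the 2 routes, which differ by more than the technical error. It was -0.97 ± 0.13 for SB202190 in EBSS, just short of the size counted, and 1.44 ± 0.13 against RPMI. Just inside that limit of size stood Rragc and Flcn, at -1.04 and -1.02, and just outside Fnip2. The EBSS over RPMI ratios of Fnip1, Flcn and Fnip2 followed one another within 0.26 on the log2 scale, and neighbours in that order differed by no more than about their errors. By this ratio they were the 16th, 18th and 27th highest of 11877 measured genes.

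**Figure D2:**
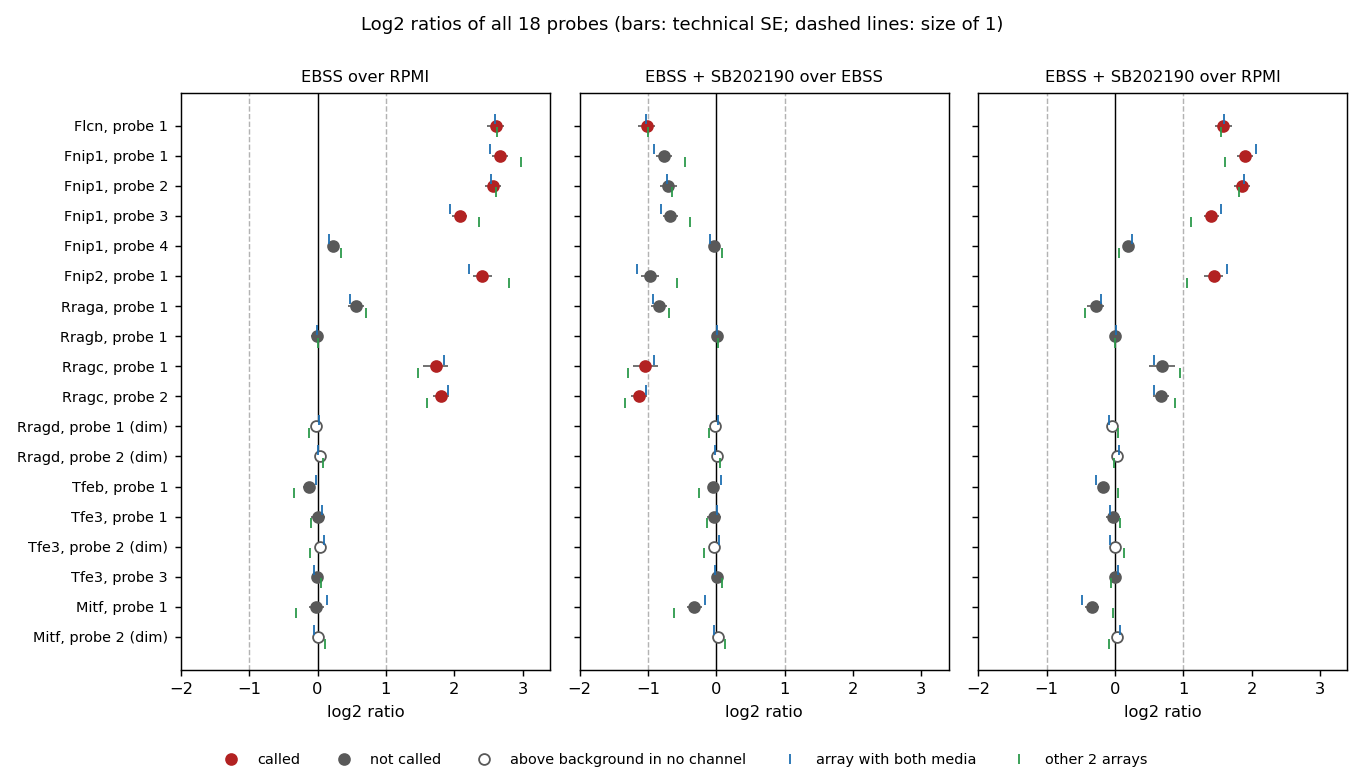
Log2 ratios of all 18 probes (y axis, ordered by gene and brightness) for EBSS over RPMI, EBSS with SB202190 over EBSS and EBSS with SB202190 over RPMI. Points are loop estimates with technical SE, red where counted; blue ticks are the array that held both media, green ticks the path through the other 2. Both probes of Rragc lie together. For EBSS over RPMI the 3 bright probes of Fnip1 lie at 2.67, 2.56 and 2.08 and the dimmest at 0.22.

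Among the Rag GTPases, Rragc was the only one of 3 measured genes that met the criteria. RagC is the subunit on which folliculin acts. Its brighter probe, at chr4:123438789-123438848 on the plus strand, read 13.95 and 14.16 in EBSS with SB202190, 15.06 and 15.26 in EBSS, and 13.41 and 13.39 in RPMI. The 3 media did not overlap. The log2 ratio was 1.73 ± 0.19 for EBSS over RPMI and -1.04 ± 0.19 for SB202190 in EBSS. Against RPMI, EBSS with SB202190 gave 0.69 ± 0.19, with 0.56 from the array that held both and 0.94 through the other 2, below the size counted.

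The second Rragc probe, matched across chr4:123432242-123437858, read 11.18 and 11.16 in EBSS with SB202190, 12.19 and 12.50 in EBSS, and 10.59 and 10.61 in RPMI. Its log2 ratios of 1.81, -1.13 and 0.67 lay within 0.10 of those of the first probe. Both Rragc probes therefore had the order EBSS, EBSS with SB202190, RPMI from high to low. The Rragc ratio of EBSS over RPMI ranked 121st of 11877, and for SB202190 in EBSS it was the 305th lowest of 11701, near Flcn, the 324th lowest.

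Rraga encodes RagA, one of the subunits that pair with RagC or RagD. Its probe at chr4:86048224-86048283, plus strand, read 11.69 and 11.60 in EBSS with SB202190, 12.52 and 12.50 in EBSS, and 12.02 and 11.90 in RPMI. Its channels did not overlap between media either, but the order differed from that of Rragc, with EBSS highest and EBSS with SB202190 lowest. The log2 ratios were 0.56 ± 0.12 for EBSS over RPMI, -0.84 ± 0.12 for SB202190 in EBSS and -0.28 ± 0.12 for EBSS with SB202190 over RPMI, none of the size counted. With median centring in place of loess the last one was 0.13, but the median of all genes moved by 0.34 there, and relative to it Rraga read -0.21. For EBSS over RPMI median centring gave 1.68, which was counted, but 0.87 relative to the median of all genes. For SB202190 in EBSS it gave -1.55, and -1.10 relative to that median, where Rraga was counted.

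Rragb encodes RagB, a close relative of RagA. Its probe at chrX:148498924-148498983, plus strand, read 8.88 and 8.91 in EBSS with SB202190, 8.91 and 8.86 in EBSS, and 8.87 and 8.87 in RPMI. These values differed by at most 0.05 over all 6 channels, and the 3 log2 ratios lay between -0.01 and 0.01 with a technical SE of 0.08. This probe is dim, and with median centring its EBSS over RPMI ratio was -0.56 relative to the median of all genes. Rragd encodes RagD, which in other cells is known as a MiT/TFE target. Its 2 probes, at chr4:33341590-33341649 and chr4:33332811-33332870, were not well above background in any of the 6 channels, so no ratio is given for Rragd.

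The genes of the MiT/TFE factors themselves did not meet the criteria in any comparison. Tfeb, at chr17:47252863-47252922 on the plus strand, read 8.76 and 8.86 in EBSS with SB202190, 8.80 and 8.90 in EBSS, and 8.92 and 9.04 in RPMI. The RPMI channels were above those of both EBSS media, by a gap of 0.02 to the EBSS channels, which is below the dye gap of 0.12. The log2 ratio of Tfeb was -0.13 ± 0.08 for EBSS over RPMI, with -0.02 and -0.34 by the 2 routes, -0.04 ± 0.08 for SB202190 in EBSS and -0.17 ± 0.08 for EBSS with SB202190 over RPMI. For this dim probe the log ratio of the scanner software gave -0.75 for EBSS over RPMI. Median centring gave 0.13, and -0.68 relative to the median of all genes, so neither sign nor size was stable.

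Tfe3 read 9.84 and 9.87 in EBSS with SB202190, 9.86 and 9.86 in EBSS, and 9.80 and 9.92 in RPMI with its brightest probe, at chrX:6931620-6931679 on the plus strand. The channels of the 3 media overlapped, and the 3 log2 ratios lay between -0.04 and 0.01 with a technical SE of 0.11. Another Tfe3 probe, at chrX:6922500-6922559, was well above background in no channel, and the one at chrX:6924874-6924933 in 1 channel of each of EBSS with SB202190 and RPMI.

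The Mitf probe at chr6:97983855-97983914, plus strand, was printed in 10 spots on each array, and its ratios varied between spots with an SD of 0.02. It read 9.37 and 9.53 in EBSS with SB202190, 9.69 and 9.83 in EBSS, and 9.69 and 9.86 in RPMI. EBSS and RPMI overlapped, and both lay above EBSS with SB202190. The log2 ratio was -0.32 ± 0.11 for SB202190 in EBSS and -0.34 ± 0.11 against RPMI, below the size counted. The routes for the inhibitor in EBSS gave -0.17 and -0.63, a difference many times the spread between spots. The ratio for EBSS over RPMI was -0.02 ± 0.11. With median centring, which moved the median of all genes by 0.81, the EBSS over RPMI ratio was 0.65 for Mitf and 0.74 for Tfe3, and relative to that median it was -0.16 and -0.07, nearer to 0 than the -0.68 of Tfeb and the -0.56 of Rragb. A second Mitf probe, across chr6:97971656-97975912, was well above background in no channel.

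**Figure D3:**
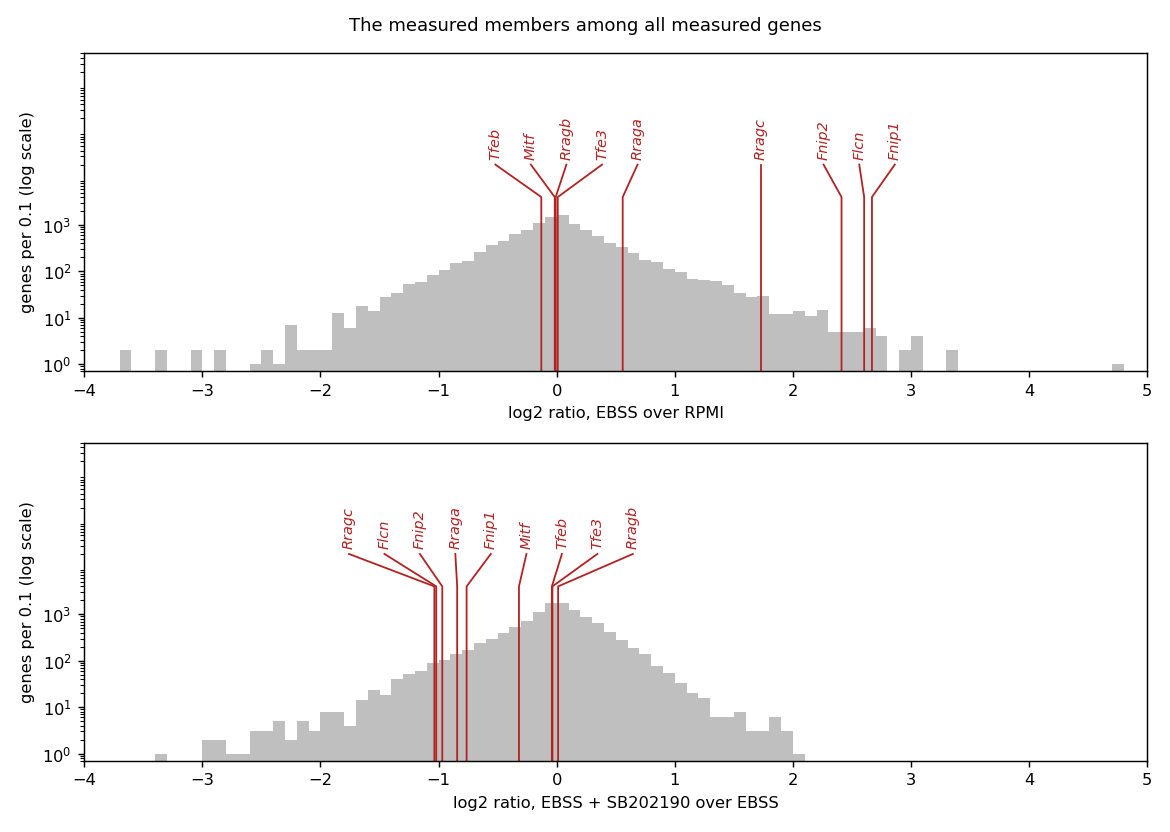
Histograms of the log2 ratio over all measured genes (x axis, bins of 0.1; y axis, genes per bin, log scale), 11877 for EBSS over RPMI at the top and 11701 for EBSS with SB202190 over EBSS below, with the 9 measured members in red. Fnip1, Flcn and Fnip2 lie in the upper tail at the top, and below they lie with Rragc and Rraga between -1.04 and -0.76.

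The genes with the most similar pattern were those with the smallest distance in 2 log2 ratios, EBSS over RPMI and EBSS with SB202190 over EBSS, among 10774 genes well above background in all 6 channels. The 5 nearest to Flcn were Mospd1 (distance 0.12), Fnip2 (0.20), Fnip1 (0.27), Sesn2 (0.28), which encodes a leucine sensor upstream of the Rag GTPases, and Lrig2 (0.31). Among the 5 nearest to Fnip1 were Sesn2 (0.08), Ppp1r15a (0.11), a phosphatase subunit of the integrated stress response, Chka (0.21) and Flcn (0.27). The 5 nearest to Fnip2 were Lrig2 (0.12), the autophagy gene Atg12 (0.20), Flcn (0.20), Mospd1 (0.21) and the stress transcription factor gene Atf3 (0.24). Some of these places depended on the setting. For EBSS over RPMI, Mospd1, Lrig2 and Atg12 read 2.55, 2.33 and 2.25, but 1.38, 1.47 and 1.05 in their lowest settings. Each of the 3 folliculin complex genes had at least 1 other among its 5 nearest, over 3 conditions with 1 sample each. As the members were chosen with these same ratios in view, nothing is read from this nearness. The 5 nearest to Rragc were Slc66a2 (0.05), Cth (0.08), which encodes an enzyme of cysteine synthesis, Lamtor3 (0.11), which encodes a subunit of the Ragulator scaffold that anchors the Rag GTPases, BC051230 (0.12) and Tbc1d15 (0.13). Rragc itself was the 63rd nearest to Flcn, at 0.88.

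The other genes of the pathway were taken as lists by their known role, and all values for them are log2 ratios. Each list's counts are to be read beside the array, where 4.48% of genes were higher and 2.82% lower in EBSS than in RPMI. For SB202190 in EBSS these shares were 0.889% and 2.92%, and for EBSS with SB202190 over RPMI 1.47% and 2.43%. Of 7 measured genes of Ragulator and the lysosomal anchor, Lamtor3 was the only one that met the criteria: it rose by 1.62 in EBSS and fell by 1.08 with SB202190 in EBSS, though the inhibitor ratio read -0.87 through the other 2 arrays and was not counted there. Its partner Lamtor1 read -0.86 for EBSS over RPMI. Lamtor4 had a value by 1 route only, so it could not be counted. The median of these 7 log2 ratios was -0.29 for EBSS over RPMI, which turned to 0.11 when median-centred ratios were taken relative to all measured genes, and 0.37 for SB202190 in EBSS. Over the 6 genes well above background in all 6 channels, which leave out Lamtor4, the medians were -0.09 and 0.26. Of 14 measured genes of GATOR, KICSTOR and the amino acid sensors, Sesn2 rose by 2.60 and Sesn1, another sestrin gene, fell by 1.28 in EBSS, and with SB202190 Sesn2 was still 1.86 above RPMI. The other Sesn2 probe gave 1.92 for EBSS over RPMI. A second, dimmer Sesn1 probe gave -0.48, as did the median of all Sesn1 probes, with which Sesn1 was not counted. The list's medians were 0.12 for EBSS over RPMI and 0.08 for SB202190 in EBSS, with 0 of 14 counted in the inhibitor comparison. That count depended on the setting: 3 genes were higher with the scanner's log ratio, where 782 of 11701 were higher over the array. Without background subtraction 2 were higher (244 over the array), and through the other 2 arrays 1 (203). At equal spread between arrays 1 was higher and 1 lower (259 and 619 over the array). With median centring relative to all genes 1 was lower (576 over the array).

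Of 11 measured genes of mTORC1 and the TSC complex, 3 rose in EBSS: Akt1s1 (1.26), which encodes the mTORC1 inhibitor PRAS40, Rheb (1.03), which encodes the GTPase that activates mTORC1, and Tsc1 (1.02), whose product restrains Rheb. Over the whole array 4.48% of genes were higher. Through the other 2 arrays alone Akt1s1 (0.81) and Rheb (0.69) fell short, and on the array that held both media Tsc1 (0.86) did. A pair of other Tsc1 probes gave 0.17 and 0.09 and a further one was above background in no channel, and with the median of all probes Tsc1 read 0.17. With median centring 7 genes of the list were higher, and 4 relative to the median of all genes, where 4252 and 870 of 11877 genes were higher over the array. Akt1s1 fell by 1.21 with SB202190 in EBSS, but read -0.98 and was not counted on the array that held both conditions, and Rheb read -0.96. Mlst8, an mTORC1 subunit, was 1.07 higher in EBSS with SB202190 than in RPMI, but 0.93 on the array that held both and 0.95 at equal spread, neither counted. The list's medians were 0.25 and 0.00. None of 6 measured AMPK subunit and Stk11 genes was counted in any comparison, with log2 ratios of EBSS over RPMI between -0.21 (Prkab1) and 0.03 by their brightest probes. Another probe of Prkaa1, a catalytic AMPK subunit gene, was well above background in all 6 channels and read 0.81 for EBSS over RPMI and -0.66 for SB202190 in EBSS. Among 8 measured MiT/TFE regulators only Gsk3b, which encodes a kinase of these factors, was counted for EBSS over RPMI, at 1.09. Another Gsk3b probe gave 0.28, and 4.48% of genes were higher over the array. The MiT/TFE relative Tfec was well above background in 1 of 6 channels only.

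Lysosome and autophagy genes that are known MiT/TFE targets formed the longest list and the one with the most counted genes. Of 31 measured, 10 rose in EBSS and 0 fell, against 4.48% higher and 2.82% lower of 11877 genes on the array, with a median log2 ratio of 0.65 in the list. Sqstm1, an autophagy receptor, rose by 2.71. The proton pump subunit genes Atp6v1d, Atp6v1a, Atp6v1h and Atp6v0d1 rose by 1.77, 1.46, 1.41 and 1.36. Gla, which encodes a lysosomal galactosidase, rose by 1.48, Gpnmb, a membrane glycoprotein gene, by 1.38, Clcn7, a lysosomal chloride transporter, by 1.35, Uvrag by 1.27 and Scpep1 by 1.06. A pair of other Uvrag probes was dim, one above background in 1 of 2 channels per medium and one in none. Scpep1 read 0.99 and was not counted by the one array shared by both media.

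With SB202190 in EBSS, 7 of the 31 target genes fell and 0 rose, against 2.92% lower and 0.889% higher of 11701 genes on the array, with a median of -0.24 in the list. The log2 ratios were -2.17 for Sqstm1, -1.53 for Atp6v1a, -1.32 for Atp6v1h, -1.19 for Atp6v1d, -1.03 for Gpnmb, -1.02 for Gla and -1.01 for Atp6v1b2. Gla (-0.98) and Atp6v1b2 (-0.87) were not counted by the one array shared by both media. Against RPMI, 2 were counted as higher in EBSS with SB202190, Clcn7 at 1.23 and Uvrag at 1.18, with a median of 0.28. Over the array 1.47% of 11867 genes were higher in this comparison. The number that rose in EBSS was 10 or 11 in all other settings but became 30 with median centring, and 18 when these ratios were taken relative to the median of all genes. Over the array, 4252 of 11877 genes were higher with median centring and 870 relative to that median. The 2 counted against RPMI became 0 when arrays were scaled to equal spread and 1 with median centring, where 84 and 152 genes were higher over the array.

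**Figure D4:**
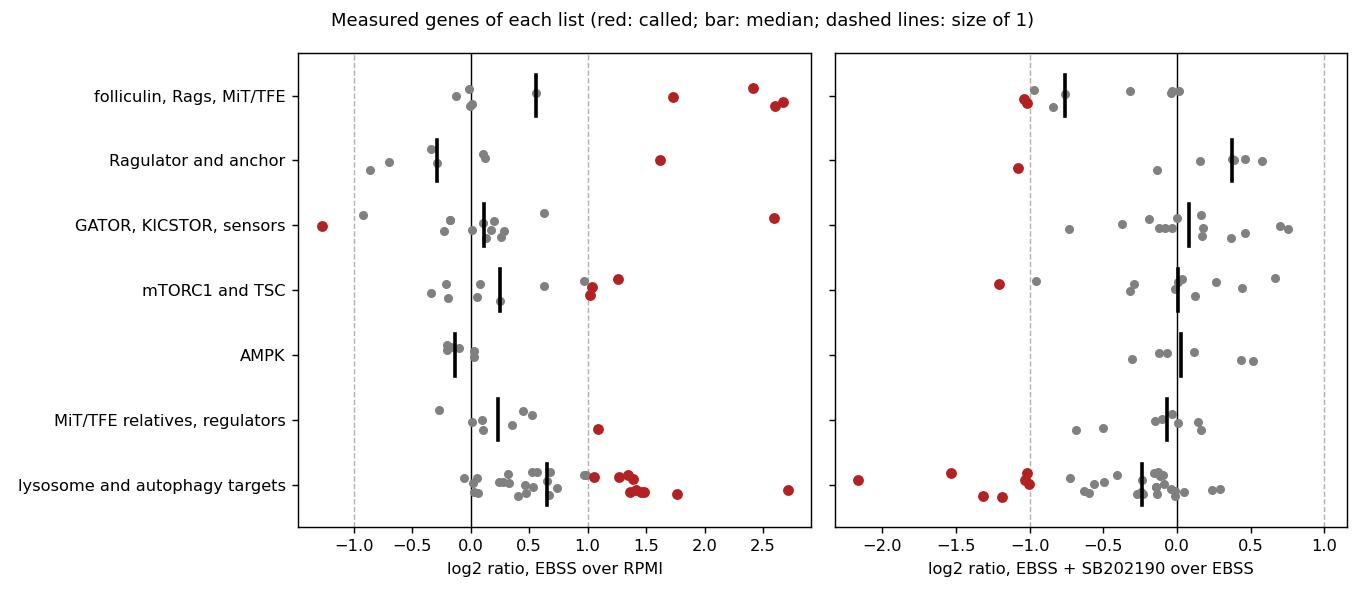
Log2 ratio of each measured gene (points, red where counted; vertical jitter has no meaning) and list median (black bar) for the 10 genes and 6 lists of related genes, for EBSS over RPMI at the left and EBSS with SB202190 over EBSS at the right. The targets reach 2.71 (Sqstm1) at the left and -2.17 at the right, and the AMPK genes, by their brightest probes, stay between -0.21 and 0.03 at the left.

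**Figure D5:**
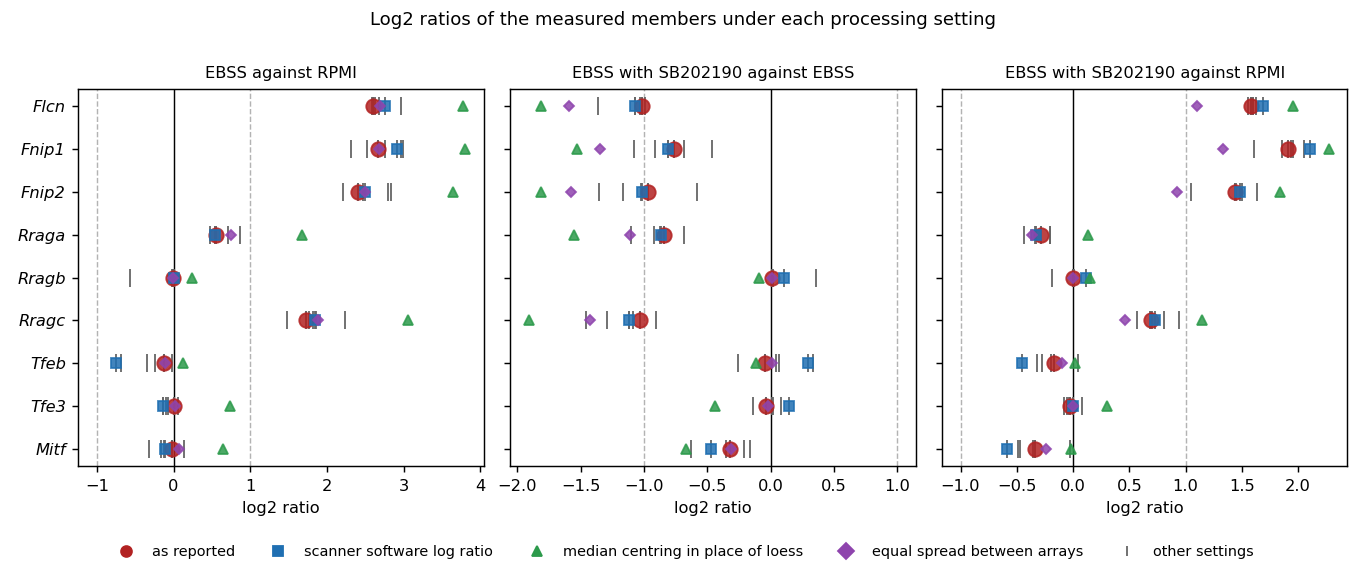
Log2 ratios of the 9 measured members under each processing setting, for the 3 comparisons. Red circles are the values reported, blue squares the scanner software's log ratio, green triangles median centring, purple diamonds arrays scaled to equal spread, and ticks the other settings; Flcn, Fnip1, Fnip2 and Rragc stay above 1 for EBSS over RPMI throughout.

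The calls for EBSS over RPMI held for Flcn, Fnip1, Fnip2 and Rragc in every setting tried, with log2 ratios of 2.59 to 3.77, 2.32 to 3.81, 2.22 to 3.65 and 1.47 to 3.05. The number of members lower with SB202190 in EBSS was less stable. It was 2 as reported, and 1 through the 2 arrays that leave out the direct pair, where Flcn was at -0.99 and only Rragc counted. It was 5 when the arrays were scaled to equal spread, where Flcn, Fnip1, Fnip2, Rraga and Rragc counted. The genes counted also changed: on the array that held both conditions, Flcn (-1.03) and Fnip2 (-1.16) passed the size and Rragc (-0.91) did not.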

How the data were processed

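The 3 media had 1 sample each, read in both dyes over 3 two-colour arrays. Spots were read with Agilent Feature Extraction 9.5.3.1, a version given in the file headers. The deposited files hold, per the file headers, mean spot and median background intensity without normalization, processed intensity after background subtraction and dye normalization, its log10 ratio of Cy5 over Cy3, and marks for background, outlier and control spots. The deposited series table of log2 ratios matched that scanner ratio, uncentred, with medians of -0.0854, -0.0766 and -0.166.

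With limma 3.58.1 under R 4.3.3, mean intensities were corrected by normexp (offset 50), then loess-normalized within arrays with control spots given weight 0. Of 45018 spots per array, the 1639 control spots and 136 to 178 outliers were dropped. Saturation was marked for none. Replicate spots were averaged per probe. Intensities per channel followed Aquantile scaling. Levels of different genes' probes were set against each other only to show how dim the Rragb probe was. A gene was represented by its brightest probe. Ratios (log2) come from a least-squares fit to the loop (Python 3.11.15, numpy 2.4.6, pandas 2.3.3, figures with matplotlib 3.10.9), with technical errors from the loop sum in 30 intensity bins. The procedure was tested on simulated data. The number of arrays limits the precision.

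Genes named are all members, the counted genes of each list or otherwise the 2 largest ratios, and the 5 genes nearest to each member higher in EBSS. The members and lists were chosen with earlier results of these data known. An accession in RefSeq's gene table (GRCm38.p6) named 24375 of the 41174 probes, a current symbol 6301 and a synonym 2426, while 8072 kept the file's name. List genes not found by name are not analysed here, and a gene that the naming rule gives is not reported here. The design text can be read as placing EBSS within RPMI, and the source names were followed. Alternatives numbered 10, with 2 added after seeing the data.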

Additional observations from a re-analysis of the deposited data

How the results depend on the processing

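The 9 counted member ratios were recomputed under 12 alternatives, which gave 108 values: 104 stayed counted, 4 kept their sign but were not counted, and 0 reversed. The 4 were Rragc with SB202190 in EBSS from the array that held both conditions alone (-0.91), Flcn there through the other 2 arrays (-0.99), and Fnip2 for EBSS with SB202190 over RPMI at equal spread between arrays (0.92) and with median centring in place of loess (1.84, as its routes differed). The cause was not tested. Not all of the 104 could have come out otherwise. Aquantile scaling leaves ratios unchanged, and the filters on dim probes could not drop these members, whose brightest probes were well above background in all 6 channels. The series table also repeats the scanner's log ratio, so the 104 overstates how stable the calls were. Members lower with SB202190 in EBSS, 2 as reported, numbered 1 through the other 2 arrays and 5 at equal spread, an alternative chosen after seeing the data. The other counts of members stayed within 1.5 times, at 4 or 5 for EBSS over RPMI and 2 or 3 for EBSS with SB202190 over RPMI. Over all genes, EBSS against RPMI gave 532 higher and 335 lower, against 962 and 1094 with the scanner's log ratio and 4252 and 23 with median centring, which moved the median of all genes by 0.81, -0.45 and 0.34 in the 3 comparisons (relative to it, members counted were 4, 3 and 3). SB202190 in EBSS gave 104 and 342, against 782 and 772 with the scanner's log ratio and 18 and 769 with median centring. Totals there were 446 as reported, 732 without background subtraction and 878 at equal spread. EBSS with SB202190 against RPMI gave 462 in all, against 1248 with the scanner's log ratio and 242 both with median centring and at equal spread; the 462 were 174 higher and 288 lower, against 152 and 90 with median centring. The series table gave nearly the counts of the scanner's log ratio (2057, 1554 and 1251 in all), and Aquantile scaling leaves ratios unchanged by construction. No paired analysis was possible because each condition had 1 sample. Dim probes limit what can be said of Rragd, Tfeb and Rragb, and with 1 sample per condition no value covers the spread between cultures.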

Other observations

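Adding the log2 ratios of the 3 arrays around the closed loop should give 0, and this sum had an SD of 0.286 over 10774 genes. It was 0.04 for Flcn, 0.01 for Rragb and 0.23 for Rraga, but 0.45 for the brightest Fnip1 probe, 0.59 for Fnip2, -0.38 for Rragc and -0.46 for Mitf. The second Fnip1 probe closed the loop at 0.08 and gave log2 ratios within 0.11 of those of the brightest one.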
